A study of Sus scrofa with 6 samples.

Results

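NDC80, NEK2, CCNB1 and STMN1 are genes of cell division, and their transcripts were measured in pig aortic valve leaflets held under cyclic pressure. A list of 5 mitosis genes was searched by gene symbol in the annotation of the Affymetrix Porcine Genome Array. It found 4 of the 5 genes, on 6 of the 24123 probe sets. NEK2 had 3 of these and the other genes 1 each. No probe set carried the symbol CDK1 or its older name CDC2, so CDK1 was not analysed here. The genes were chosen by earlier results of this same comparison. NDC80 and NEK2 had been among the genes with less signal at hypertensive pressure and groups that did not overlap, and CCNB1 and STMN1 had been among the cell cycle genes with the smallest p-values. Their differences between the pressures are therefore a description, with no p-value.

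Leaflets came from adult female pigs. Their endothelium was taken off with collagenase, and the leaflets stayed overnight in serum-containing medium before the experiment. The hypertensive group (3 arrays) was cycled between 0 and 120 mmHg and the normotensive group (3 arrays) between 0 and 80 mmHg, both at 1 Hz for 24 h in a bioreactor. Both groups shared the stripping, the medium with fetal bovine serum and the bioreactor. The labels call the samples biological replicates without saying whether they came from separate animals, so the errors cover only how these samples vary, and that may be technical.

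A cell enters mitosis when cyclin B, the product of CCNB1, has activated the kinase CDK1. The spindle then has to attach to each chromosome through the kinetochore, whose microtubule-binding arm is the complex named after NDC80. NEK2 is a kinase of the centrosome that loosens the link between the centrosomes so that the spindle poles can part. Stathmin, the product of STMN1, binds free tubulin and promotes the shortening of microtubules, and it is switched off by phosphorylation as the spindle forms. Transcripts of cyclin B and of many kinetochore genes are abundant in dividing cells and scarce in resting ones, and interstitial cells of healthy adult valves divide little.

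Signals are on the linear scale of the array software, which had set each array to the same trimmed mean. Log2 signals of hypertensive replicate 2 correlated at 0.950 with those of the normotensive arrays, on average, against 0.895 for replicate 3 and 0.817 for replicate 1. Correlations between normotensive arrays were 0.952 to 0.978. Hypertensive replicate 2 thus lay nearest to the normotensive arrays, and values are also given without it. Leaving out an array for that closeness tends to widen the differences between the groups. Signal at a control probe set near the 3′ end over that at its 5′ partner is often read as a sign of RNA integrity. Over 3 GAPDH pairs it was 18.1 to 29.8, 2.91 to 6.04 and 6.02 to 19.4 on hypertensive arrays, and 17.6 to 37.4, 2.11 to 7.52 and 4.56 to 24.8 on normotensive arrays. For EF1A it was 1.35 to 1.55 on hypertensive and 1.30 to 1.65 on normotensive arrays. One actin pair had 52.5 to 81.7 on hypertensive and 41.1 to 109 on normotensive arrays. The other had 0.197, 1.20 and 0.646 on hypertensive replicates 1, 2 and 3, and 0.566 to 0.985 on normotensive arrays. The groups overlapped in every pair, and hypertensive replicate 1 was the lowest array in the last.

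All 4 genes had less signal on every hypertensive array than on any normotensive array. Their mean signal at hypertensive pressure, as a geometric mean, was 22.9% to 38.0% of that at normotensive pressure. The plot of signals by array shows the gap between the groups and the wider scatter of the hypertensive arrays. Among all 14399 probe sets bright enough to be tested, 12.0% lay wholly lower at hypertensive pressure. The count for these 4 genes follows from how they were chosen and is not read against that share.

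**Figure D1:**
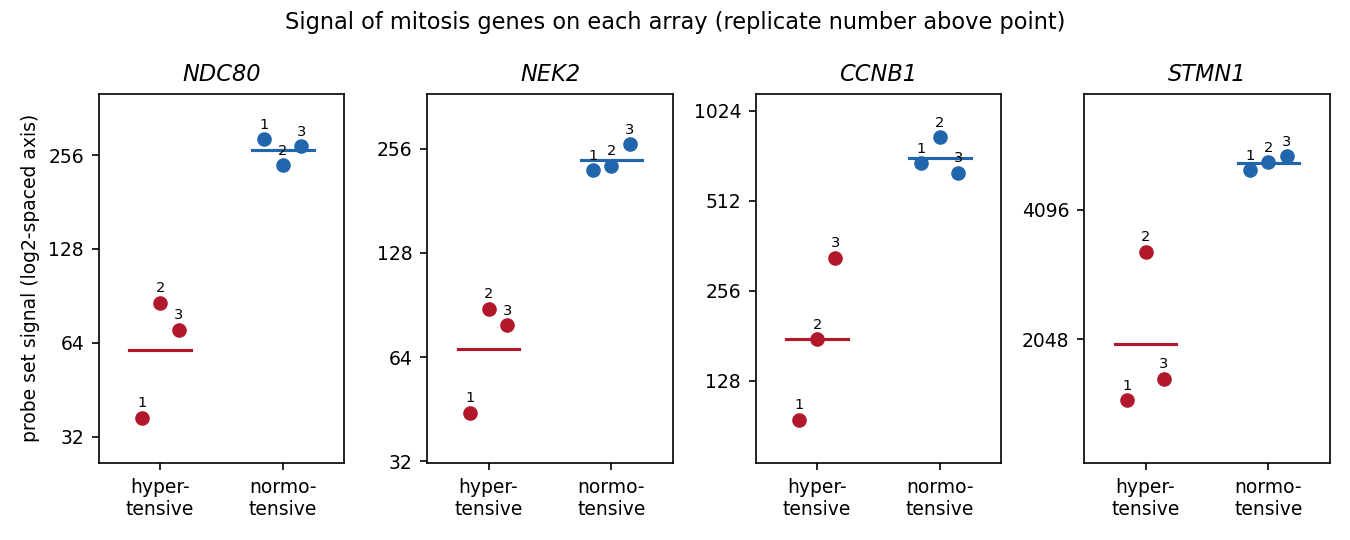
Probe set signal of NDC80, NEK2, CCNB1 and STMN1 on each array, on log2-spaced axes that differ between panels, with hypertensive arrays (red) left of normotensive arrays (blue). Points are single arrays with their replicate numbers, and bars are geometric means of 3 arrays. Every red point lies below every blue point of its panel, and hypertensive replicate 1 is the lowest in each.

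At the kinetochore, NDC80 had signals of 36.9, 86.2 and 70.5 on hypertensive replicates 1, 2 and 3, and 288, 237 and 273 on normotensive replicates 1, 2 and 3. The lowest normotensive value was 2.75 times the highest hypertensive one. The log2 difference, hypertensive minus normotensive, was -2.13 (SE 0.38, n = 3 each), which leaves 22.9% of the normotensive signal. Replicate 1 of the hypertensive group lay below 48.5, the signal level under which probe sets were not tested, so the exact depth of that value is uncertain. With all signals raised to at least that level the difference was -1.99, and with a pseudocount of 64 added to every signal it was -1.38.

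At the centrosome, the brightest NEK2 probe set had signals of 44.3, 88.4 and 79.1 on the hypertensive arrays and 222, 229 and 264 on the normotensive arrays. Again the hypertensive arrays all lay below the normotensive ones, with hypertensive replicate 1 under the level of 48.5. The log2 difference was -1.81 (SE 0.35), or 28.5% of the normotensive signal, and it was -1.18 with a pseudocount of 64. The other two NEK2 probe sets were below that level on average and were not tested. One read 6.28, 23.3 and 21.9 on the hypertensive arrays and 7.33, 4.05 and 42.4 on the normotensive arrays. The other read 9.67, 4.57 and 13.99 on the hypertensive arrays and 4.95, 12.8 and 3.43 on the normotensive arrays. In both the groups overlapped and the means differed the other way, by 0.45 and 0.50 on the log2 scale, so the description of NEK2 rests on 1 of its 3 probe sets.

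CCNB1, the cyclin that switches on CDK1, had signals of 94.8, 176 and 330 on the hypertensive arrays and 684, 836 and 635 on the normotensive arrays. The hypertensive arrays were spread over 3.49-fold, the widest of the 4 genes, against 1.32-fold for the normotensive arrays. Even the highest of them lay well under the lowest normotensive value, which was 1.92 times as large. The log2 difference was -2.01 (SE 0.45), or 24.8% of the normotensive signal. With array weights, which limma estimates from the scatter of arrays about their group means, it was -1.31. The weight was 2.38 for hypertensive replicate 3, the highest of its group for CCNB1, and 0.289 and 0.195 for replicates 1 and 2. Normotensive replicates 1, 2 and 3 had weights of 6.96, 0.931 and 1.15.

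STMN1, which encodes stathmin, had signals of 1475, 3272 and 1654 on the hypertensive arrays and 5065, 5279 and 5449 on the normotensive arrays. The normotensive arrays lay within 1.08-fold of each other, the tightest of the 4 genes. Hypertensive replicate 2 lay between the other hypertensive arrays and the normotensive ones. The log2 difference was -1.40 (SE 0.31), or 38.0% of the normotensive signal, the smallest difference among the 4 genes.

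The 4 genes did not keep the same order over the hypertensive arrays. Relative to the normotensive mean, replicate 1 kept 13.9% of the signal for NDC80, 18.6% for NEK2, 13.3% for CCNB1 and 28.0% for STMN1, and it was the lowest hypertensive array for each. Replicate 2 kept 32.5% for NDC80, 37.2% for NEK2, 24.7% for CCNB1 and 62.2% for STMN1. Replicate 3 kept 26.6% for NDC80, 33.3% for NEK2, 46.3% for CCNB1 and 31.4% for STMN1. Replicate 2 was thus the highest hypertensive array for NDC80, NEK2 and STMN1, while replicate 3 was the highest for CCNB1. Replicate 1 was the lowest hypertensive array in 37.7% of all tested probe sets, and in 74.7% of those whose hypertensive arrays lay wholly below the normotensive ones.

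The scatter within a group was larger at hypertensive pressure for each of the 4 genes. The SD of the log2 signal was 0.64 for NDC80, 0.54 for NEK2, 0.90 for CCNB1 and 0.62 for STMN1 among hypertensive arrays, against 0.14, 0.13, 0.20 and 0.05 among normotensive arrays. The median over all tested probe sets was 0.49 among hypertensive and 0.23 among normotensive arrays, and 77.5% of them had the larger SD at hypertensive pressure. A wider scatter at hypertensive pressure was thus common on these arrays.

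Without hypertensive replicate 2, the log2 differences were -2.38 for NDC80, -2.01 for NEK2, -2.01 for CCNB1 and -1.75 for STMN1. Without hypertensive replicate 1 they were smaller in size, at -1.77, -1.51, -1.56 and -1.18 in the same order of genes. Leaving out any 1 array moved none of the 4 by as much as 1.5 times, as the plot of differences with each array left out shows.

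**Figure D2:**
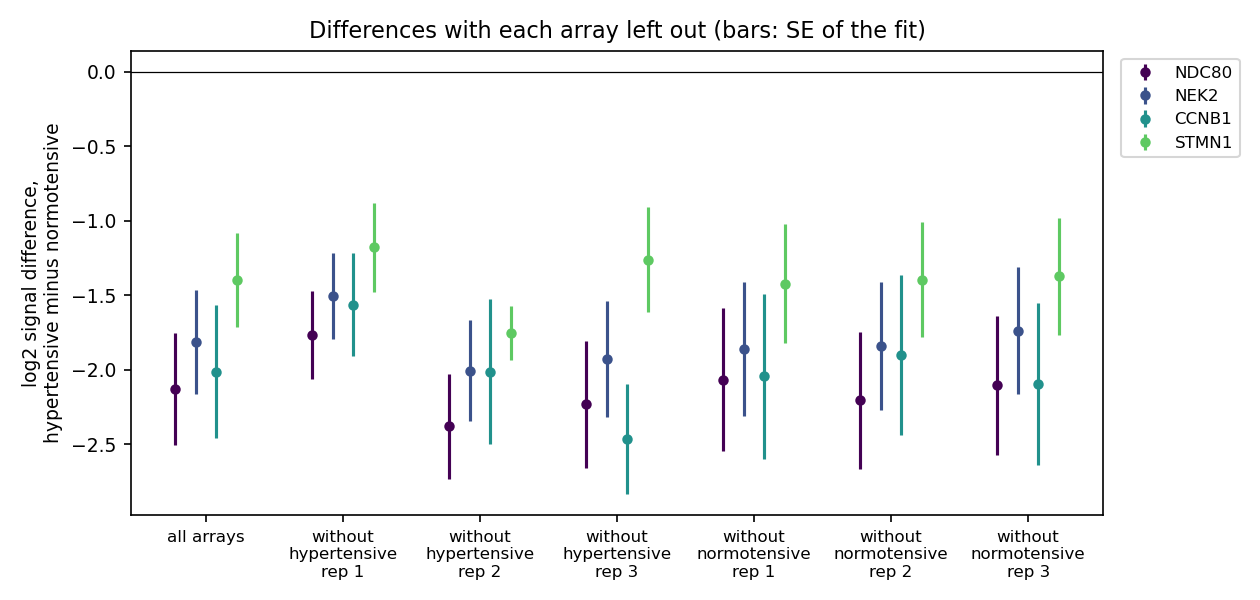
Log2 signal difference of NDC80, NEK2, CCNB1 and STMN1, hypertensive minus normotensive, with all 6 arrays and with each array left out in turn. Points are differences of group means and bars are the SE of the fit, and all lie below 0. CCNB1 ranges from -2.46 to -1.56 and STMN1 from -1.75 to -1.18.

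Across the whole array, limma called 0% of 14399 probe sets at an adjusted p of 0.05 (0 probe sets), while an unadjusted p under 0.05 was found for 2436 probe sets, 1372 lower and 1064 higher at hypertensive pressure. Other genes of mitosis were then read from 5 lists by role, leaving out the members themselves. Of their 144 genes, 65 had a named probe set and 52 were bright enough to be tested. Limma called 0 of the 52, with adjusted p between 0.222 and 0.985. Without hypertensive replicate 1 or 3 it called 0 probe sets. Replicate 2 of that group was singled out as nearest to the normotensive arrays, so leaving it out tends to widen the differences. Without hypertensive replicate 2 limma called 3505 probe sets and 19 of the 52 genes, 17 of them lower. These are 36.5% and 32.7% of the 52, where 26.0% of all tested genes were called and 15.7% were called lower. With arrays weighted by their scatter about the group means, most weight lay on normotensive replicate 1 (6.96) and hypertensive replicate 3 (2.38). Calls under this setting thus rest mostly on 1 array of each group. Limma then called 5639 probe sets and 24 of the 52 genes, 20 of them lower. These are 46.2% and 38.5% of the 52, where 40.7% of all tested genes were called and 25.3% were called lower. The mean was lower at hypertensive pressure in 41 genes and higher in 11, where it was lower in 2895 of all 5267 tested genes other than the members. The groups did not overlap in 18 genes that were lower, or 34.6% of the 52, where 12.6% of all 5271 tested genes lay wholly lower. They did not overlap in 2 genes that were higher, where 9.28% of all genes did. An unadjusted limma p under 0.05 was found in 16 of the 52 genes that were lower, where 10.2% of all genes had one. It was found in 2 that were higher, where 361 of the 5267 had one. The median log2 difference of the 52 genes was -0.46, and that of the 5215 tested genes outside the members and these lists -0.07.

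**Figure D3:**
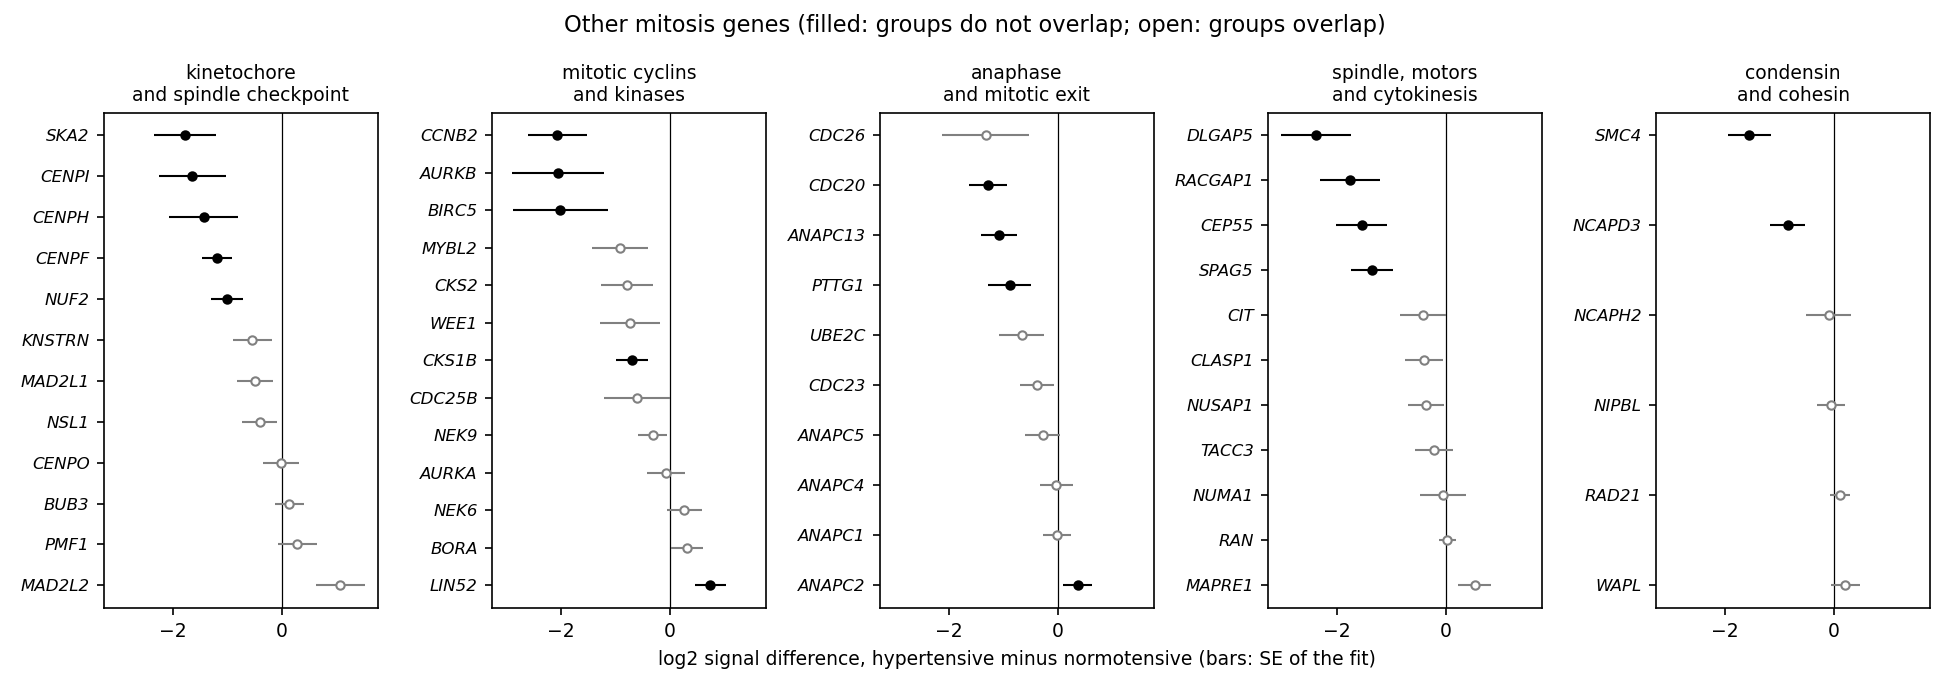
Log2 signal difference, hypertensive minus normotensive, of the 52 other mitosis genes in 5 lists by role. Points are differences of group means of 3 arrays each, bars are the SE of the fit, filled points are genes whose groups do not overlap and open grey points those that do. Of the filled points 18 lie below 0 and 2, LIN52 and ANAPC2, above it.

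Of the kinetochore and spindle checkpoint genes, 9 of 12 had a lower mean at hypertensive pressure and 5 lay wholly lower. The 5 are 41.7% of the list, where 12.6% of all tested genes lay wholly lower. A lower mean was found in 2895 of all 5267 tested genes other than the members, which also stands beside the later lists. NUF2, the direct partner of NDC80 in its complex, had signals of 65.1, 92.0 and 91.3 on the hypertensive arrays and 183, 158 and 153 on the normotensive arrays. All hypertensive values lay lower, with a log2 difference of -1.01 (SE 0.30, limma adjusted p = 0.253). SPC25, a further subunit, was below the tested level with overlapping groups, at 32.0, 2.58 and 10.9 on the hypertensive and 41.5, 29.7 and 14.7 on the normotensive arrays. CENPF, a large kinetochore protein of dividing cells, was at 97.1, 115 and 125 on the hypertensive and 246, 274 and 245 on the normotensive arrays (log2 difference -1.19, SE 0.27, limma adjusted p = 0.222). The hypertensive arrays lay within 1.29-fold of each other for CENPF, against 2.33-fold for NDC80. SKA2, which helps the kinetochore hold microtubules, and CENPI, which sits at the inner kinetochore, had log2 differences of -1.77 (SE 0.57) and -1.65 (SE 0.62). BUB3, a checkpoint protein, had one of 0.14 with overlapping groups.

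Of the mitotic cyclins and kinases, 10 of 13 had a lower mean and 4 lay wholly lower (30.8%, where 12.6% of all tested genes did). CCNB2, the second B-type cyclin, had signals of 26.2, 103 and 102 on the hypertensive arrays and 298, 314 and 220 on the normotensive arrays. Its log2 difference was -2.07 (SE 0.54, limma adjusted p = 0.237), close in size to that of CCNB1. CKS1B, a small subunit that binds CDK1, was at 754, 1445 and 1219 on the hypertensive and 1711, 1970 and 1679 on the normotensive arrays, all hypertensive values lower. Its paralogue CKS2 had overlapping groups, at 455, 1400 and 387 on the hypertensive and 1192, 975 and 1088 on the normotensive arrays. The enzymes that set the activity of CDK1 also overlapped, with log2 differences of -0.60 (SE 0.60) for the activating phosphatase CDC25B and -0.73 (SE 0.56) for the inhibiting kinase WEE1. CCNA2, the A-type cyclin, and CDC25C were below the tested level with overlapping groups.

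AURKB, the kinase that corrects faulty attachments at the centromere, had signals of 7.45, 65.0 and 84.4 on the hypertensive arrays and 158, 103 and 181 on the normotensive arrays. Hypertensive replicate 1 was far below the others, and the log2 difference of -2.06 (SE 0.85) was -0.95 without it. LIN52, a subunit of a complex that represses and later activates cell cycle genes, went the other way, at 1171, 734 and 749 on the hypertensive and 481, 500 and 568 on the normotensive arrays (log2 difference 0.75, SE 0.29, limma adjusted p = 0.278). Of the other NEK kinases, NEK3, NEK6 and NEK9 had log2 differences of -0.44, 0.27 and -0.32, each with overlapping groups.

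Of the genes of anaphase and mitotic exit, 9 of 10 had a lower mean and 3 lay wholly lower. The 3 are 30.0% of the list, where 12.6% of all tested genes lay wholly lower. CDC20, which activates the anaphase-promoting complex, was at 36.8, 31.4 and 48.4 on the hypertensive and 93.4, 112 and 76.3 on the normotensive arrays. All hypertensive values were under the tested level, so CDC20 was at least 1.91-fold lower at hypertensive pressure (limma adjusted p = 0.238). ANAPC13, a small subunit of that complex, was at 904, 2050 and 1130 on the hypertensive and 2607, 3041 and 2474 on the normotensive arrays (log2 difference -1.08, SE 0.33). Securin, encoded by PTTG1, had a log2 difference of -0.89 (SE 0.39) and lay wholly lower, while CDC26 had one of -1.33 (SE 0.81) with overlapping groups.

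Of the genes of the spindle, its motors and cytokinesis, among which stathmin was listed, 9 of 11 others had a lower mean. Wholly lower were 4, or 36.4%, where 12.6% of all tested genes were. DLGAP5, a spindle protein, had signals of 41.5, 169 and 296 on the hypertensive arrays and 675, 551 and 802 on the normotensive arrays. Its hypertensive arrays took the same order as those of CCNB1, and its log2 difference was -2.39 (SE 0.65, limma adjusted p = 0.238). A second DLGAP5 probe set had one of -0.90 with overlapping groups. RACGAP1, which organises the midzone in cytokinesis, was at 167, 876 and 538 on the hypertensive and 1567, 1305 and 1507 on the normotensive arrays. The abscission protein CEP55 and the spindle protein SPAG5 had log2 differences of -1.55 (SE 0.47) and -1.37 (SE 0.39). Tubulins, the protein that stathmin binds, did not separate the groups, with TUBB at -0.25 (SE 0.32) and TUBA1B at 0.12 (SE 0.23). STMN2, a relative of stathmin known from neurons, was below the tested level.

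Of the condensin and cohesin genes, 4 of 6 had a lower mean, where 2895 of all 5267 tested genes other than the members did. Wholly lower were 2, or 33.3%, where 12.6% of all tested genes were. These 2 were condensin subunits, whose complexes compact chromosomes in mitosis. SMC4 had signals of 221, 597 and 434 on the hypertensive arrays and 1170, 935 and 1326 on the normotensive arrays (log2 difference -1.55, SE 0.39, limma adjusted p = 0.235). A second SMC4 probe set had a log2 difference of -0.18 with overlapping groups. NCAPD3 had one of -0.85 (SE 0.32). The cohesin subunit RAD21 and the cohesin release factor WAPL had log2 differences of 0.11 and 0.21, with overlapping groups.

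Without 1 array, the size of some of these differences moved by over 1.5 times. Without hypertensive replicate 1 the log2 difference was -1.42 for CCNB2, -1.58 for DLGAP5, -1.09 for RACGAP1 (against -1.76 with all arrays), -0.89 for CENPI, -1.19 for SKA2 and -0.61 for CDC26. Without hypertensive replicate 2 it was -2.43 for SKA2, -2.36 for CDC26 and -1.37 for WEE1, and without hypertensive replicate 3 it was -2.70 for AURKB and -2.995 for DLGAP5. The number of the 52 genes wholly lower was 18 without hypertensive replicate 1, 23 without replicate 2 and 26 without replicate 3. In the same order, 14.2%, 32.4% and 17.2% of all tested genes were wholly lower. Genes wholly lower with all arrays stay so with 1 left out, so these numbers cannot fall below that with all arrays.

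The 52 other mitosis genes had a lower median on each hypertensive array, but by unequal amounts. Their median log2 signal relative to the normotensive mean was -0.84 on hypertensive replicate 1, -0.34 on replicate 2 and -0.37 on replicate 3, and between -0.08 and 0.10 on the normotensive arrays. The same median over the 5215 tested genes outside the members and lists was -0.08, 0.02 and -0.10 on the hypertensive arrays. The plot by array shows the 4 chosen genes further down than the median of the 52 on every hypertensive array. As the 4 were chosen on this same comparison, that is not a result about them.

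**Figure D4:**
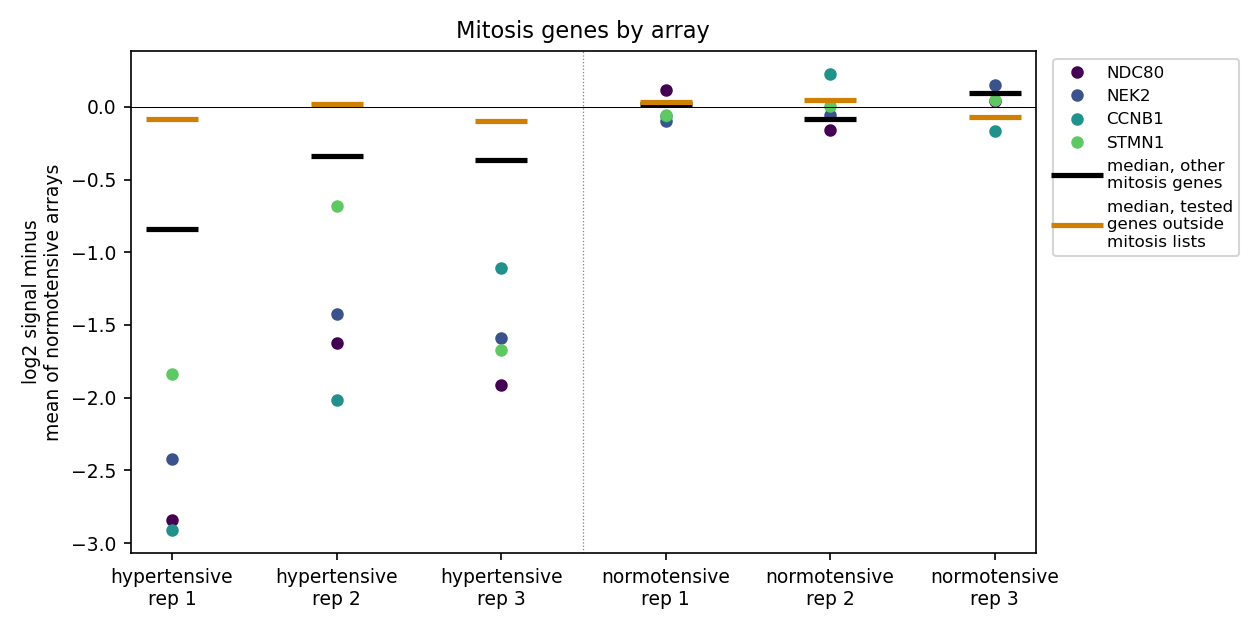
Log2 signal on each array minus the mean of the normotensive arrays, for NDC80, NEK2, CCNB1 and STMN1 (points), with the median of the 52 other mitosis genes (black bars) and of the 5215 tested genes outside the members and mitosis lists (orange bars). The black bars lie at -0.84, -0.34 and -0.37 on hypertensive replicates 1, 2 and 3, and the points, chosen on this same comparison, lie below them there.

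Genes of other steps of the cell cycle were read in the same way. Of 21 tested genes of DNA replication, 7 lay wholly lower, or 33.3% where 12.6% of all tested genes did, with RRM2 and TOP2A at log2 differences of -2.88 (SE 0.56) and -2.21 (SE 0.47), the first of which was -2.19 without hypertensive replicate 1. Of 5 tested cyclins, kinases and regulators of G1, 0 had groups that did not overlap, by array values, and 0 had an unadjusted p under 0.05 by limma. RBL2, a pocket protein of resting cells, and the D-type cyclin CCND2 had log2 differences of -1.81 (SE 0.85) and -1.01 (SE 0.57). Without hypertensive replicate 1 these were -0.74 and -0.78, and without replicate 2 they were -2.80 and -1.73. E2F3 was at 0.57 (SE 0.47) and CDK2 at -0.42 (SE 0.37). Of 13 CDK inhibitors and p53 targets, 1 lay wholly lower and 1 wholly higher, or 7.69% each, below the 12.6% and 9.28% of all tested genes. CDKN3, a phosphatase that acts on CDK proteins, was the lower one, at -1.00 (SE 0.32). GADD45G was the higher one, at 0.61 (SE 0.29). MKI67, the usual marker of proliferation, had no named probe set and was not analysed here.

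These arrays read whole leaflets, so fewer dividing cells and less of each transcript per cell cannot be told apart. Markers of interstitial cells were lower as well. Of 12 listed, 9 had a named probe set and all 9 had a lower mean at hypertensive pressure, and their summed signal was 52402 to 69012 on hypertensive arrays against 78093 to 81219 on normotensive arrays. The 8 bright enough to be tested had log2 differences of -1.02 to -0.13, and 2 lay wholly lower. LUM, which encodes the matrix proteoglycan lumican, was at -0.86 (SE 0.27), the surface marker THY1 at -1.01 (SE 0.41), and the collagen gene COL3A1 at -1.02 (SE 0.65). COL3A1 was at -0.22 without hypertensive replicate 1 and -1.74 without replicate 2. The brightest probe set of the matrix gene POSTN was at -0.53 (SE 0.18). A second, dimmer POSTN probe set was at -2.42, a larger difference than that of NDC80, NEK2, CCNB1 or STMN1. Second kept probe sets of THY1 and COL1A2 were at -0.05 and -0.93, against -1.01 and -0.25 for their brightest ones. The summed signal of 13 endothelial markers was 2149 to 4458 on hypertensive and 2548 to 3142 on normotensive arrays, with CDH5, VWF, KDR, FLT1, TIE1, SELE and CLDN5 below the tested level. That of 14 macrophage and leukocyte markers was 1686 to 4472 on hypertensive and 3217 to 5804 on normotensive arrays, with the T cell markers CD3D, CD3E, CD2, CD4 and CD8A below it. The summed ranges overlapped in both these lists, but some of their genes lay apart. Of the endothelial markers 6 had a lower and 7 a higher mean, with 1 wholly lower and 3 wholly higher. These counts include markers below the tested level. Of all tested genes, 12.6% lay wholly lower and 9.28% wholly higher. SELP, an adhesion receptor of activated endothelium and platelets, read 2296, 784 and 368 on the hypertensive and 95.4, 245 and 90.6 on the normotensive arrays (log2 difference 2.76, SE 0.67, and 2.06 without hypertensive replicate 1). Its relative SELE read 443, 64.6 and 29.3 on the hypertensive and 1.11, 4.50 and 1.62 on the normotensive arrays. CDH5, the cadherin of endothelial junctions, read 68.4, 115 and 84.9 on the hypertensive and 30.3, 12.3 and 40.5 on the normotensive arrays. SELP, SELE and CDH5 were the 3 wholly higher. ERG was the 1 wholly lower, at -0.64 (SE 0.27). ENG and TEK also had lower means, at -0.46 (SE 0.39) and -0.37 (SE 0.45), with overlapping groups. Of the macrophage and leukocyte markers 6 had a lower and 8 a higher mean, with 1 wholly lower and 2 wholly higher. These counts too include markers below the tested level and stand beside the same 12.6% and 9.28%. PTPRC, the leukocyte antigen CD45, was lower at -1.33 (SE 0.55), and CORO1A, an actin-binding protein of leukocytes, was higher at 0.79 (SE 0.36), with a second CORO1A probe set at -1.23 and overlapping groups. The part of any of these markers in the mitosis result was not tested.

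The genes with the profile nearest to each member over the 6 arrays were found by the root mean square difference of log2 signals, each gene centred on its own mean. NDC80 and NEK2 were nearest to each other among the members, at 0.20, and CCNB1 and STMN1 farthest apart, at 0.68. Outside the members, FBXL2, an F-box protein gene, was nearest to both NDC80 (0.12) and NEK2 (0.16). FBXL2 was below the tested level on every hypertensive array and at least 2.46-fold lower there, so its profile is uncertain at the low end. LMCD1, a gene of a LIM domain protein, came next for both, at 0.20 and 0.21. SGCD, delta-sarcoglycan of the muscle membrane complex, followed for NDC80 (0.24), and SMC4 for NEK2 (0.21).

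CCNB1 was nearest to ASPN, which encodes the matrix proteoglycan asporin, at 0.18. ASPN had signals of 576, 1120 and 1769 on the hypertensive arrays and 4355, 5631 and 5162 on the normotensive arrays, in the same order over the hypertensive arrays as CCNB1. ACAA2, a thiolase of mitochondrial fatty acid oxidation, and TOP2A followed at 0.25 and 0.26. STMN1 was nearest to the collagen gene COL5A1 (0.11), the lysosomal sulfatase gene IDS (0.13) and AKAP11, which anchors protein kinase A (0.14). COL5A1 was at 959, 2410 and 1251 on the hypertensive and 3076, 3379 and 3571 on the normotensive arrays, and hypertensive replicate 2 was again the highest of its group. Of these nearest genes, SMC4 and TOP2A belong to the lists of division genes and the others do not.

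**Figure D5:**
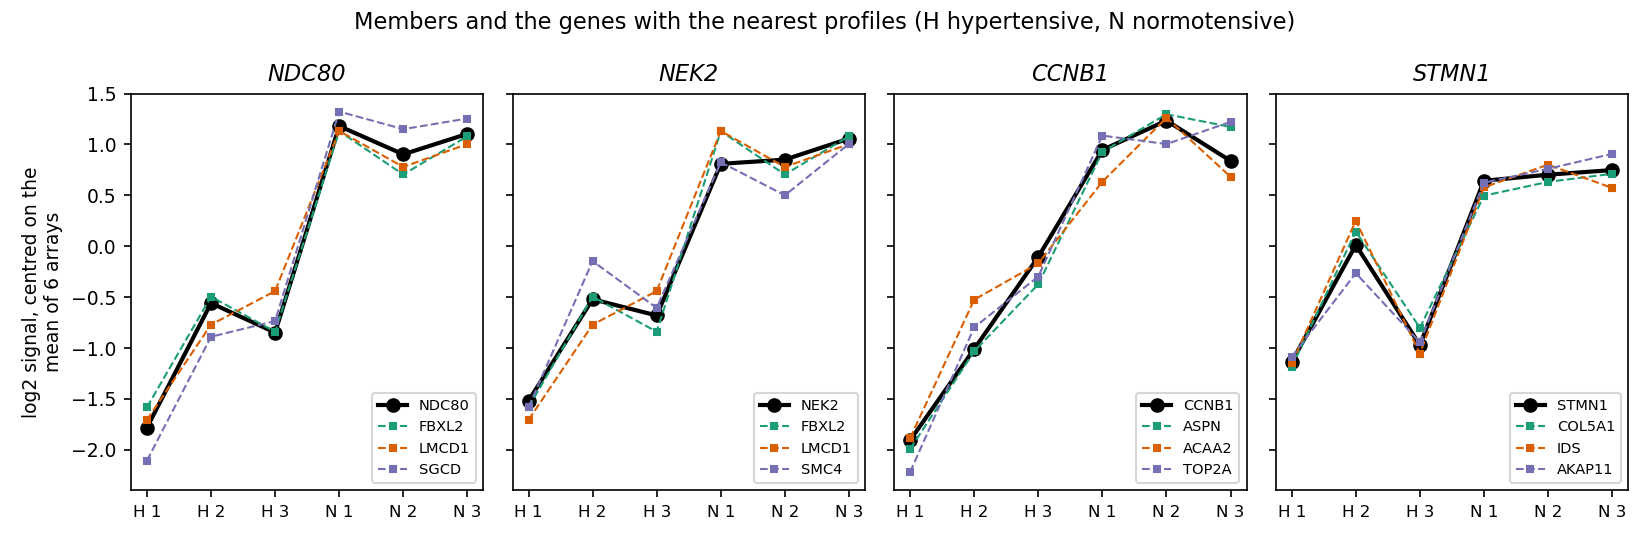
Log2 signal on each array, centred on the mean over 6 arrays, for each member (black) and the 3 genes with the nearest profile (coloured, dashed); H marks hypertensive and N normotensive arrays, and lines only join points of a gene. CCNB1 and ASPN are highest of the hypertensive arrays on replicate 3, while STMN1 and COL5A1 are high on hypertensive replicate 2 alone within that group.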

How the data were processed

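Per the submitters' processing notes, the authors made the values with GCOS and MAS5, whose versions are not stated there. The deposited table gives each probe set a linear signal intensity on each array, and the 2% trimmed means were equal on the 6 arrays, so a change that moved most transcripts 1 way would stay hidden. No detection calls were used. The number of arrays limits the precision. Of 24123 probe sets, 124 controls were left out, and of the other 23999, 10069 had 1 gene symbol, 198 several and 13732 none.

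The log2 of each intensity was used, without a pseudocount. Probe sets at or above the 40th percentile of mean log2 intensity (signal 48.5) were kept, 14399 in all. The comparison used limma 3.58.1 under R 4.3.3 (lmFit, eBayes with intensity trend, 2-sided, Benjamini-Hochberg over all kept probe sets), checked on simulated data. A gene was read by its brightest kept probe set, which gave 5271 genes. An exact test of 3 against 3 arrays cannot go below p = 0.1, so none was used.

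The members and the lists were chosen with earlier results of these data known. From each list up to 4 genes with the smallest p were named, with partners of the members (NUF2 and SPC genes, B and A cyclins, CDC25, WEE1 and CKS genes, NEK kinases, stathmins) and the 3 nearest genes in profile. BUB3, VIM, DCN, PDGFRB, second probe sets, SELE, CDH5 and the genes below the tested level were named after their values were seen. Alternatives are given in the closing section.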

Additional observations from a re-analysis of the deposited data

How the results depend on the processing

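CCNB1 and STMN1 kept the direction of their difference under all 16 other settings tried. NDC80 and NEK2 kept it under the 15 in which they were tested. Their groups did not overlap, so the direction could not change with arrays left out or weighted, or with a floor or pseudocount. The filters, the replicate block and the fit without intensity trend left the differences as they were. Only quantile normalization and the median shift could have changed the direction. With the filter at the 60th percentile NDC80 and NEK2 were too dim to be tested. The log2 difference ranged from -2.38 to -1.38 for NDC80, -2.01 to -1.18 for NEK2, -2.46 to -1.31 for CCNB1 and -1.75 to -1.18 for STMN1. The smallest sizes for NDC80 and NEK2 came with a pseudocount of 64, which shrinks low signals, and that for CCNB1 with array weights. The number of the other mitosis genes lying wholly lower, a recount chosen after seeing the data, was 18 to 26 with 1 array left out and 18 with all arrays. This number cannot fall when an array is left out, so its range does not measure stability. The share of all tested genes wholly lower was 12.6% with all arrays and 14.2% to 32.4% with 1 left out. The median of the 52 other mitosis genes ranged from -0.64 to -0.33 when 1 array was left out.

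The number of calls was less stable. Limma called 0 probe sets with all arrays, 5639 with array weights and 0 to 3505 with 1 array left out. Most of the array weight lay on normotensive replicate 1 and hypertensive replicate 3. The 3505 came without hypertensive replicate 2, the array of its group nearest to the normotensive ones, and 1 was called without normotensive replicate 2. Of the other mitosis genes, 24 were called with array weights (46.2% of the 52, where 40.7% of all tested genes were called), and 0 to 19 with 1 array left out. The 19 came without hypertensive replicate 2 (36.5%, where 26.0% of all tested genes were called). The cause was not tested. With the replicate number as a block, 0 probe sets were called. Deviations of same-numbered arrays from their group means correlated at 0.059, 0.072 and 0.226, and each array correlated best with its own number, a hint from the data and not from the design.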

Other observations

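Of the 65 mitosis genes with a named probe set, 13 fell below the tested level, and 3 of these, chosen after their values were seen, had groups that did not overlap. PLK1, a kinase of mitotic entry, read 2.13, 6.10 and 11.7 on the hypertensive arrays and 59.0, 34.0 and 33.7 on the normotensive arrays. SKA1, a partner of SKA2 at the kinetochore, read 19.9, 12.7 and 32.4 on the hypertensive and 119, 69.6 and 89.0 on the normotensive arrays. HMMR, a spindle and hyaluronan-binding protein, read 10.5, 47.6 and 19.8 on the hypertensive and 90.1, 82.2 and 51.5 on the normotensive arrays. All 3 read lower on the hypertensive arrays, and the other 10 overlapped. For HMMR the lowest normotensive value was only 1.08 times the highest hypertensive one. The share of all genes below the tested level that lay wholly lower was not counted. The 3 of 13 therefore have no share to stand beside, and such low signals are uncertain.

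Of the 11 other mitosis genes with several kept probe sets, the probe sets pointed 1 way in 7 and both ways in 4. NSL1, a kinetochore subunit, had log2 differences of -0.41, -0.24 and 2.12, the last with hypertensive arrays wholly above the normotensive ones. ANAPC1 had -0.02 and 0.80, and MAD2L2 had 1.08 and -0.06. The 2 brightest RAN probe sets had 0.03 and 0.11, while the dimmer kept ones had -1.22, -0.98, -0.17, -0.78, -0.74 and -0.13. Those at -1.22, -0.98 and -0.78 lay wholly lower, and the other RAN probe sets overlapped.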
